A study of Homo sapiens with 16 samples.

Results

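BST2 and the interferon-induced transmembrane genes IFITM1, IFITM2 and IFITM3 encode membrane proteins that restrict enveloped viruses. The 4 genes were taken by symbol from the 60669 genes of each deposited table. They were selected on their measured log2 changes between the genotypes in both tables, already known when the genes were picked, so their values are given as a description and their p-values say only on which side of a threshold a gene lay. The RNA came from the human microglial line HMC3, whose libraries carry the label wild type or METTL3 knockout (METTL3 encodes the catalytic subunit of the enzyme that methylates adenosine in RNA). The labels give no treatment, and they do not say how the knockout was made or whether it is 1 clone. The labels list 16 libraries: 5 per genotype from polyadenylated RNA by Smart-seq2, and 3 per genotype after depletion of ribosomal RNA. The poly(A) libraries were used through the authors' deposited table of 1 comparison, and the rRNA-depleted libraries through TPM, a gene's share of the transcripts in a library per unit of gene length.

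BST2, also called tetherin, is anchored in the membrane at both of its ends and holds budding virus particles on the cell surface. IFITM proteins act earlier, where viral and cellular membranes fuse: IFITM1 lies mainly at the cell surface, and IFITM2 and IFITM3 mainly in endosomes. All are classical interferon-stimulated genes, whose promoters carry a site called the interferon-stimulated response element.

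RefSeq promoters (GRCh38.p14) were matched for 3 of the 4 genes, and the stretch from 150 bases before to 10 bases after the start is shown because each holds that element's core. Capitals mark matches to GAAANNGAAA, where N is any base. The regions are chr19:17405621-17405780 on the minus strand for BST2, chr11:313890-314049 on the plus strand for IFITM1 and chr11:320851-321010 on the minus strand for IFITM3.
BST2: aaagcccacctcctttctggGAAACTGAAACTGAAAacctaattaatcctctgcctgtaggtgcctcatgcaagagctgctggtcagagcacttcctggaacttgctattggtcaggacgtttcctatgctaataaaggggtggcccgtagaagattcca
IFITM1: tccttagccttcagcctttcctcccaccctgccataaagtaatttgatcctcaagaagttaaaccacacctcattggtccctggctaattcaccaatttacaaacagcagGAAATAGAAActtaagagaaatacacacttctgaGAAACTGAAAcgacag
IFITM3: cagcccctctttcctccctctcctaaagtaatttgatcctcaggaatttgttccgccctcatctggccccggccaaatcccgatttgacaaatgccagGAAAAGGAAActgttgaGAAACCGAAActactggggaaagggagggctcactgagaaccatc

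In BST2 a pair of overlapping matches began 130 and 124 bases before the start. In IFITM1 the matches began 40 and 6 bases before the start, and in IFITM3 52 and 35. The longer form GAAANNGAAACT, which contains the shorter, was found in all 3 promoters, once each in BST2 and IFITM1 and at both places in IFITM3. Searched on both strands over the 300-base window of each of 35116 RefSeq promoters, the longer form was present in 96 (0.273%) and the shorter in 3.57%. TTCNNNGAA, the core of the gamma-activated site, was found in BST2 (136 and 58 bases before the start) and IFITM1 (12 bases before), against 7.66% of all promoters. These matches describe letters and say nothing of binding. Among genes other than these 4 whose promoter held GAAANNGAAACT, 36 passed the expression filter in the rRNA-depleted libraries. By limma (adjusted p under 0.05) the knockout-labelled level was higher for 19 of them and lower for 3, with a median log2 difference of 1.46. Over all 10195 tested genes with a promoter in the table, 24.9% were higher, 1101 genes were lower and the median was 0.47. The authors' deposited table calls 20 of 37 such genes higher and 2 lower, with a median of 0.84, against 10.2% higher and a median of 0.01 over all genes with a promoter. Of the 10389 genes with a promoter tested there, 1183 were lower.

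GGACT, the commonest form of the sequence that METTL3 methylates in RNA, occurred once in the longest GENCODE 29 transcript of BST2 (1019 bases) and not in those of IFITM1 (855), IFITM2 (892) or IFITM3 (808). It was present in the longest transcript of 89.8% of 19922 protein-coding genes, and in 62.7% of the 678 whose longest transcript has from 808 to 1019 bases. A match is not a methylated site, and the absence of these 5 letters says nothing of other forms of the site.

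The library facts that bear on these values are as follows. Recovered depth was 266157 to 487272 reads in the wild-type libraries and 512627 to 1267171 in those labelled knockout, so the depth was lower in every wild-type library, and 1 read of these short genes is worth several TPM. Libraries labelled knockout 1 and 2 did not differ beyond sampling noise (chi-square per degree of freedom 1.02, p = 0.0687 over 10117 genes, against 1.16 to 1.54 for the other pairs of a label) and were counted as 1 sample, which leaves 3 wild-type and 2 knockout samples. Nothing in the labels says that libraries came from separate cultures, so p-values measure only the spread between these samples. METTL3 mRNA was not lower in the libraries labelled knockout: it stood at 31.2, 31.6 and 25.4 TPM in wild type and 39.2, 40.0 and 42.7 TPM in the others. The authors' deposited table gives METTL3 a log2 fold change of 0.09 (SE 0.11, adjusted p 0.654), and a deletion that leaves the mRNA in place would not show in either. Of 15 microglial marker genes, 14 had 3 reads or fewer in every rRNA-depleted library and 11 were at 0. The summed level of 10 fibroblast or mesenchymal markers was 11650 to 14076 TPM in wild type, against 5626 to 5723 TPM under the knockout label. COL1A1 alone went from 9612 to 11995 TPM down to 749 to 865 TPM, and the other 9 markers together from 2038 to 2156 TPM up to 4828 to 4908 TPM. Their part in the results was not tested.

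All 4 genes were higher in the libraries labelled knockout, in both library types, and in the rRNA-depleted libraries no wild-type value reached the lowest knockout-labelled value. In bulk RNA, more cells expressing a gene and more RNA per cell cannot be told apart. By limma 22.9% of the 14789 genes tested were called higher (12.4% lower), and 41.1% were higher without overlap between samples. The authors' deposited table calls 9.55% of 14009 genes higher (19.9% in either direction, against 35.3% by limma). Without knockout-labelled library 3, or libraries 1 and 2, limma called 1663 or 1739 genes in place of 5220. Of the 12498 genes tested in both, 648 (5.18%) were called higher in both, with a positive fold change in the authors' deposited table read as higher under the knockout label, and 379 (3.03%) with it read the other way. Since the genes were chosen for this contrast, nothing is read from their count.

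BST2 stood at 37.98, 36.99 and 42.8 TPM in wild-type libraries 1 to 3, from 6, 4 and 8 reads. In the libraries labelled knockout it stood at 291, 277 and 323 TPM, from 97, 113 and 56 reads. The wild-type libraries lay close together and all far below the others. Wild type averaged 39.3 ± 3.11 TPM (SD, n = 3) and the knockout samples 303 ± 28.01 TPM (SD, n = 2), a ratio of 7.73, and the log2 difference on the log2(TPM + 1) scale was 2.92 (SE 0.13). Pooled over libraries and scaled to depth, the reads gave a ratio of 6.09 with a 95% exact interval of 3.78 to 10.4. These intervals, here and below, cover counting error only. BST2 moved from between rank 3633 and rank 3998 among all genes of a library by TPM to between rank 330 and rank 414.

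IFITM3, which blocks fusion of viruses such as influenza from endosomes, was the most abundant of the 4 in every library. Its level was 131, 146 and 151 TPM in wild type (25, 19 and 34 reads). In the libraries labelled knockout it was 492, 524 and 575 TPM (198, 258 and 120 reads). No wild-type library came near the lowest of those labelled knockout. Wild type averaged 143 ± 10.2 TPM (SD, n = 3), the knockout samples 542 ± 47.1 TPM (SD, n = 2), a ratio of 3.79, with a log2 difference of 1.92 (SE 0.12). The ratio of pooled reads scaled to depth was 3.04 (95% exact interval 2.40 to 3.91).

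IFITM2, the endosomal relative of IFITM3, stood at 18.4, 13.4 and 15.5 TPM in wild type, from only 4, 2 and 4 reads. The libraries labelled knockout held 71.7, 74.6 and 105 TPM, from 33, 42 and 25 reads. Library 3 was the highest of those labelled knockout, and all 3 lay above the wild-type libraries. Averages of 15.8 ± 2.48 TPM (SD, n = 3) and, for the knockout samples, 88.9 ± 22.3 TPM (SD, n = 2) gave a log2 difference of 2.41 (SE 0.25), and the ratio of pooled reads scaled to depth was 4.12 (95% exact interval 2.15 to 8.86).

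IFITM1, the form at the cell surface, was at the limit of detection in wild type, with 1, 0 and 1 reads (6.56, 0 and 5.54 TPM). The libraries labelled knockout held 16, 13 and 6 reads, or 49.7, 33.0 and 35.9 TPM. The groups did not overlap, but the upper exact 95% bounds of wild-type libraries 1 and 2 (36.5 and 35.3 TPM, the latter for a count of 0) passed the lowest knockout-labelled value. The ratio of pooled reads scaled to depth was 7.21, with a 95% exact interval of 1.85 to 61.9. The fitted log2 difference of 3.43 (SE 0.97, limma adjusted p 0.0448) depends on the pseudocount: with 0.1 TPM in place of 1 it was 4.63 with a limma adjusted p of 0.153. Leaving out wild-type library 1 or 3, or either knockout sample, also took its limma adjusted p past 0.05 (0.0501, 0.0605, 0.245 without library 3, and 0.267 without libraries 1 and 2).

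**Figure D1:**
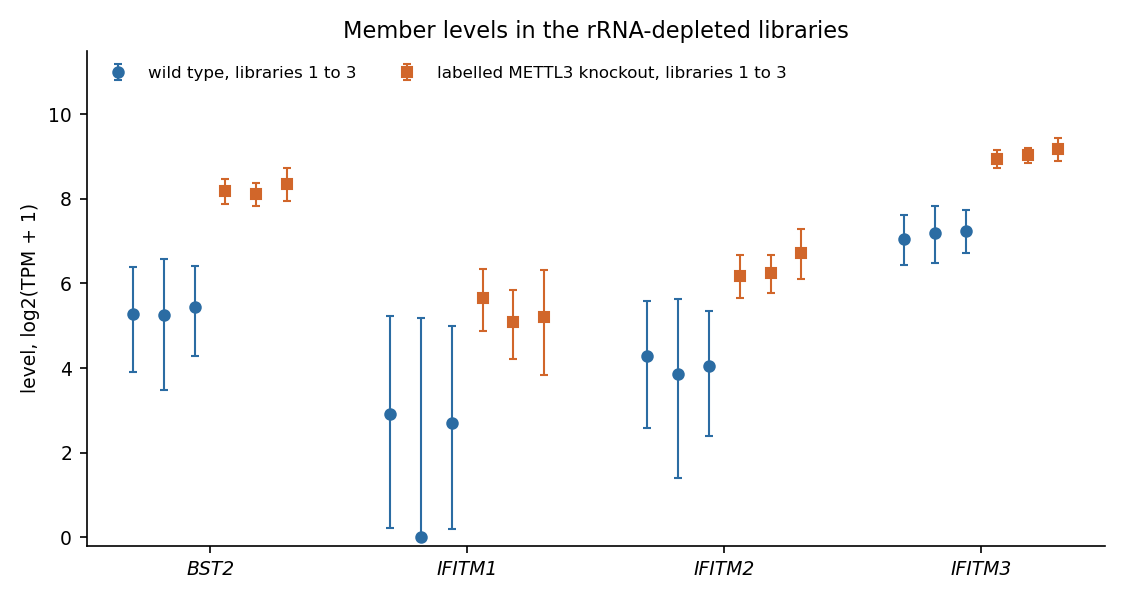
Level of each gene in the 6 rRNA-depleted libraries, as log2(TPM + 1), with 95% exact counting intervals as bars (circles, wild-type libraries 1 to 3; squares, libraries labelled knockout 1 to 3). Every square lies above every circle of the same gene; BST2 goes from 36.99 to 42.8 TPM up to 277 to 323 TPM, and IFITM1 in wild type rests on 0 or 1 reads.

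The order of the levels, which TPM gives per length, was IFITM3, BST2, IFITM2 and IFITM1 in all 6 libraries. Within each genotype the ranges of neighbours in this order did not overlap. Counting intervals of neighbours did overlap in wild-type libraries, and those of IFITM2 and IFITM1 overlapped in all 3 libraries labelled knockout. Together the 4 genes held 194 to 215 TPM in wild type and 904 to 1039 TPM in the libraries labelled knockout. The proportions were compared without a test, and in wild type they rest on few reads. IFITM3 was 3.46 to 3.94 times as abundant as BST2 in wild type and 1.69 to 1.90 times in the libraries labelled knockout. Within the IFITM genes, IFITM3 made up 84.1 to 91.6% of the sum of the 3 in wild type and 80.2 to 83.0% in the others.

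The poly(A) libraries gave the same direction and a different order of the differences. The authors' deposited table does not say which genotype is the numerator, and positive values were taken as higher in the libraries labelled knockout. With the other reading, each direction from it would turn, and the ranks would count from the other end (14008, 14005, 13019 and 13555 of 14009 for BST2, IFITM1, IFITM2 and IFITM3). BST2 had in the authors' deposited table a log2 fold change of 4.99 (SE 0.22, adjusted p 2.35e-113), rank 2 among 14009 genes. IFITM1 followed at 4.59 (SE 0.38, adjusted p 1.64e-30) and rank 5 in the authors' deposited table. IFITM3 and IFITM2 were lower on that scale, at 1.502 (SE 0.13, adjusted p 1.63e-28) and 0.99 (SE 0.16, adjusted p 1.17e-08) in the authors' deposited table, with ranks 455 and 991. BST2 and IFITM1 thus stood apart from IFITM2 and IFITM3 there. In the rRNA-depleted libraries the ranks of the same genes by log2 difference among 14789 were 595 for BST2, 326 for IFITM1, 1071 for IFITM2 and 1975 for IFITM3. The difference between library types was not tested, since the tables were normalized separately.

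The authors' mean normalized counts over the poly(A) libraries were 252 for BST2, 56.3 for IFITM1, 491 for IFITM2 and 2296 for IFITM3 in the authors' deposited table. Divided by exon length in kilobases these deposited means were 225, 52.1, 318 and 1703. IFITM3 had again the highest of these means and IFITM1 the lowest. They pool both genotypes, so they give no order within a genotype. IFITM3 ranked 45 among all genes of the authors' deposited table by mean normalized count.

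**Figure D2:**
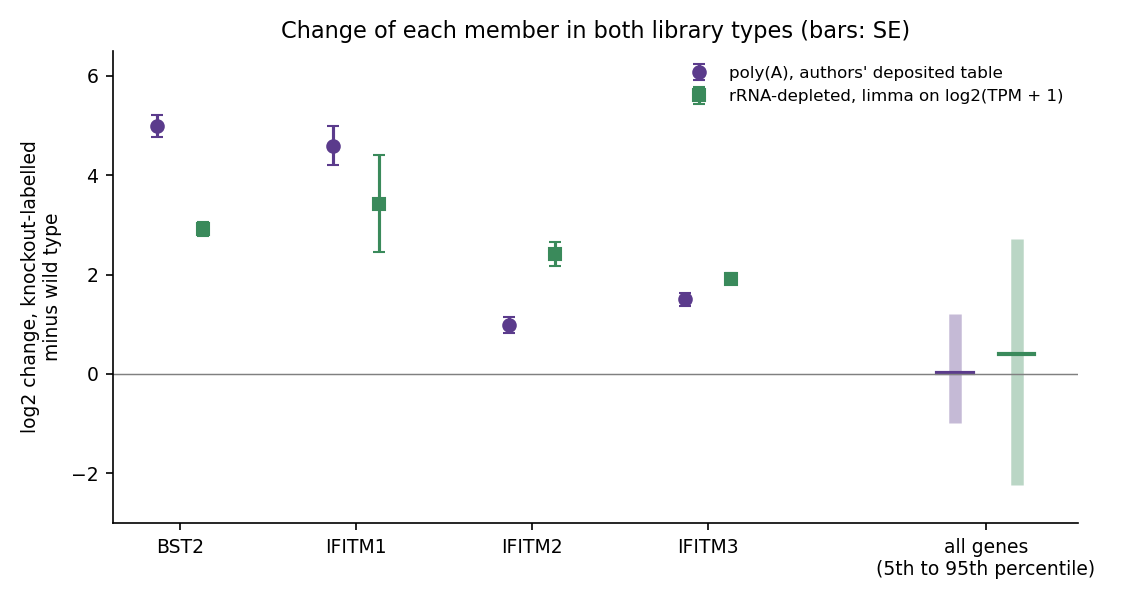
Log2 change of each gene, with its SE as a bar, in the poly(A) libraries (authors' deposited table) and the rRNA-depleted libraries (limma), beside the median and the 5th to 95th percentile of all genes. BST2 (4.99) and IFITM1 (4.59) are highest in the poly(A) table, and the spread of all genes is wider in the rRNA-depleted libraries, from -2.24 to 2.72, than in the poly(A) table, from -0.99 to 1.22.

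All genes tested in the rRNA-depleted libraries had a median log2 difference of 0.41, and the 4 genes a median of 2.66. Relative to that 0.41, BST2 was at 2.51, IFITM1 at 3.02, IFITM2 at 1.999 and IFITM3 at 1.505. The authors' deposited table has a median of 0.02 over all genes and 3.05 over the 4. The differences in the rRNA-depleted libraries fell with the GC content of a gene's longest transcript, from a median of 1.24 in the lowest of 10 equal bins to -0.41 in the highest. The 4 genes have 52.5% (IFITM1) to 57.3% (BST2) GC, in bins 7 and 8, where the median over genes was 0.16 and -0.02. With the GC trend removed, the log2 differences were larger: 3.50 for BST2, 3.77 for IFITM1, 2.93 for IFITM2 and 2.48 for IFITM3. The median over all genes was then also larger, at 0.56. Relative to it BST2 was at 2.93, IFITM1 at 3.21, IFITM2 at 2.36 and IFITM3 at 1.92.

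The IFITM genes lie together on chromosome 11 and share sequence. Their values were whole reads, which shows no division into fractions, but a shared read may have been given to any of them or left out. By GENCODE 29 on GRCh38, IFITM2 spans 307631 to 315272 and IFITM1 313506 to 315272, both on the plus strand, so that IFITM1 lies inside the IFITM2 model and they share 351 exonic bases. IFITM3 spans 319669 to 327537 on the minus strand. Of the 50-base windows of the longest IFITM1 transcript, 39.0% occur unchanged in an IFITM2 transcript and 12.2% in one of IFITM3. For IFITM3 the shares are 14.4% in IFITM2 and 12.9% in IFITM1, and for IFITM2 10.4% in IFITM3 and 5.93% in IFITM1. How the counting treated shared reads is not given in the sources used here, so the split among the IFITM genes is uncertain. BST2, on chromosome 19 from 17402939 to 17405648 on the minus strand, shares no 50-base window with them.

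The tables hold 14 other rows whose symbol begins with IFITM, mostly pseudogenes. In the rRNA-depleted libraries none of them passed the filter, and the highest count was 1 read, in 2 libraries for IFITM3P1 and in 3 for IFITM10. IFITM3P4, a pseudogene of IFITM3, had a log2 fold change of 2.19 (adjusted p 0.000294, mean normalized count 8.31) in the authors' deposited table. IFITM3P3 was at 0.98 (adjusted p 0.0925) and IFITM3P1 at 1.12 (adjusted p 0.249) in the authors' deposited table. Their mean normalized counts were 11.3 and 3.47. IFITM5, the bone-restricted gene of the cluster, was listed at 0 in the 6 libraries.

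On the deposited TPM scale no tested gene within 100 kb of these loci was called higher by limma in the rRNA-depleted libraries. With the GC trend removed 4 were: DDA1 at 1.01 and MRPL34 at 1.17 near BST2 (limma adjusted p 0.0383 and 0.0178), and SIGIRR at 1.18 and RIC8A at 0.44 near the IFITM cluster (limma adjusted p 0.0467 and 0.0462). Under that setting 3573 of all 14789 genes were called higher, so nothing is read from these 4. Around BST2, 9 of 18 genes in the files passed the filter, with a median log2 difference of 0.13. None of the 9 was called by limma, 2 had an unadjusted p under 0.05, and limma-voom on recovered reads called 3 (ANO8, GTPBP3 and SLC27A1, all lower). Over all genes 35.3% passed even the adjusted threshold by limma, so nothing is read from the 2. Among all genes, limma-voom called 3509 of 14673 lower. MVB12A, a subunit of the ESCRT-I sorting complex, begins 74 bases from BST2 on the other strand and had 33.2, 22.98 and 22.2 TPM in wild type and 20.7, 31.8 and 30.3 TPM in the libraries labelled knockout. The groups of MVB12A overlapped, with a log2 difference of 0.13 (SE 0.26; 0.78 with the GC trend removed, limma adjusted p 0.0691), and in the authors' deposited table it was at 0.14 (adjusted p 0.667). Of 7 neighbours with an adjusted p in the authors' deposited table, 1 was called higher, DDA1 at 0.38 (adjusted p 0.0497), beside 9.55% over all genes.

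Around the IFITM cluster, 8 of 20 genes passed the filter, with a median of -0.51, and 2 fell, PSMD13 by 0.82 and B4GALNT4 by 0.92 on the log2 scale (limma adjusted p 0.0204 and 0.0198). Of the 8, 3 had an unadjusted p under 0.05, and limma-voom on recovered reads called 4 lower (RIC8A, B4GALNT4, PKP3 and PSMD13). Since 35.3% of all genes passed even limma's adjusted threshold, nothing is read from the 3. Among all genes, limma on the TPM scale called 12.4% lower, and limma-voom 3509 of 14673. PSMD13 encodes a proteasome subunit. In the authors' deposited table it was also lower, at -0.30 (adjusted p 0.000887), the single neighbour called among 8, beside 19.9% called over all genes. B4GALNT4 changed sign, to 0.23, when the GC trend was removed.

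**Figure D3:**
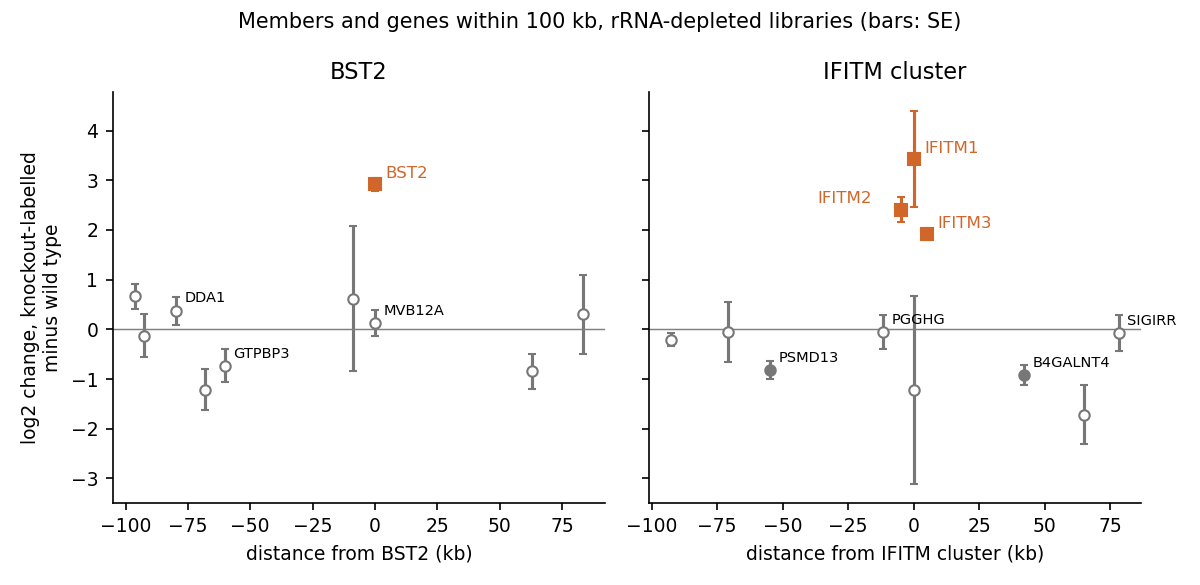
Log2 difference in the rRNA-depleted libraries, with SE, of BST2 and the IFITM genes (squares, the latter drawn side by side at the cluster) and of tested genes within 100 kb (circles, filled where limma's adjusted p was under 0.05), by distance in kb. The squares lie from 1.92 to 3.43, while neighbours have medians of 0.13 around BST2 and -0.51 around the IFITM cluster.

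The interferon pathway was examined through a list of 24 ligands, receptors, kinases and factors. Of the 20 tested in the rRNA-depleted libraries, 4 were higher and 3 lower, beside 22.9% and 12.4% over all genes. Their median was 0.57, beside 0.41 for all genes. JAK1, the receptor-bound kinase, was higher at 1.64 (SE 0.30, limma adjusted p 0.0126). SOCS3, a feedback inhibitor, was higher at 0.58 (limma adjusted p 0.0444), as was STAT2 at 0.55, and both lost the call with median ratio scaling (limma adjusted p 0.356 and 0.281). With the GC trend removed SOCS3 was at 1.27 (limma adjusted p 0.00329). Without knockout-labelled library 3, or without libraries 1 and 2, 2 genes of the list were called in place of 7.

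The receptor chains of type I interferon were lower: IFNAR2 fell by 2.47 (SE 0.30, limma adjusted p 0.00439) and IFNAR1 by 1.37 (SE 0.25, limma adjusted p 0.0128) on the log2 scale. IRF3, which drives interferon genes after virus sensing, fell by 1.14 (SE 0.14, limma adjusted p 0.00425), or by 0.50 with the GC trend removed (limma adjusted p 0.0444). The ligand genes on the list, IFNB1 and IFNL1 to IFNL3, were listed at 0 in all 6 libraries, which allows up to 3 reads in each. The authors' deposited table calls 9 of the 19 tested there higher and 1 lower, beside 9.55% and 10.3% over all genes. Their median there was 0.56. USP18, which damps interferon signalling, was at 1.60 (adjusted p 9.04e-07) in the authors' deposited table. The authors' deposited table also has IFNGR2 higher at 0.88 (adjusted p 0.0279) and IFNLR1 lower at -2.09 (adjusted p 0.0212, mean normalized count 3.16). IFNAR1, IFNAR2 and IRF3 were not called in the authors' deposited table, at -0.05, -0.41 and 0.29.

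Of 18 other restriction factors that act on membranes or capsids, 13 were tested in the rRNA-depleted libraries. Of these, 4 were called, all higher, beside 22.9% called higher over all genes. The 13 log2 differences had a median of 0.58, beside 0.41 for all genes. RSAD2, which encodes viperin, had 0 reads in every wild-type library and 12, 12 and 7 in those labelled knockout. That is 4.26-fold higher when 3 reads over the wild-type group are allowed, leaving out the counting error of the knockout-labelled reads. MX1, a dynamin-like antiviral GTPase, was higher at 2.69 (SE 0.72, limma adjusted p 0.0381) and lost the call with median ratio scaling (limma adjusted p 0.0551). SERINC3, which lowers the infectivity of retroviral particles, was higher at 1.90 (SE 0.24, limma adjusted p 0.00466). PLSCR1, a scramblase, was the other gene called, at 1.87. Without library 3, or libraries 1 and 2, of those labelled knockout, 1 gene of the list was called.

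The authors' deposited table calls 9 of 15 higher and 2 lower, beside 9.55% and 10.3% over all genes. Their median there was 0.89, beside 0.02 for all genes. The highest in the authors' deposited table were GBP2 at 3.86 (mean normalized count 2.69), RSAD2 at 3.41 and TRIM22 at 1.94. TRIM22 was not called in the rRNA-depleted libraries, where it was at -0.81 (SE 0.52, limma adjusted p 0.276). SERINC3 was lower in the authors' deposited table, at -0.26 (adjusted p 0.000797), opposite to the rRNA-depleted libraries. MARCHF2 was at -2.22 in the authors' deposited table (adjusted p 0.0346, mean normalized count 2.77).

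**Figure D4:**
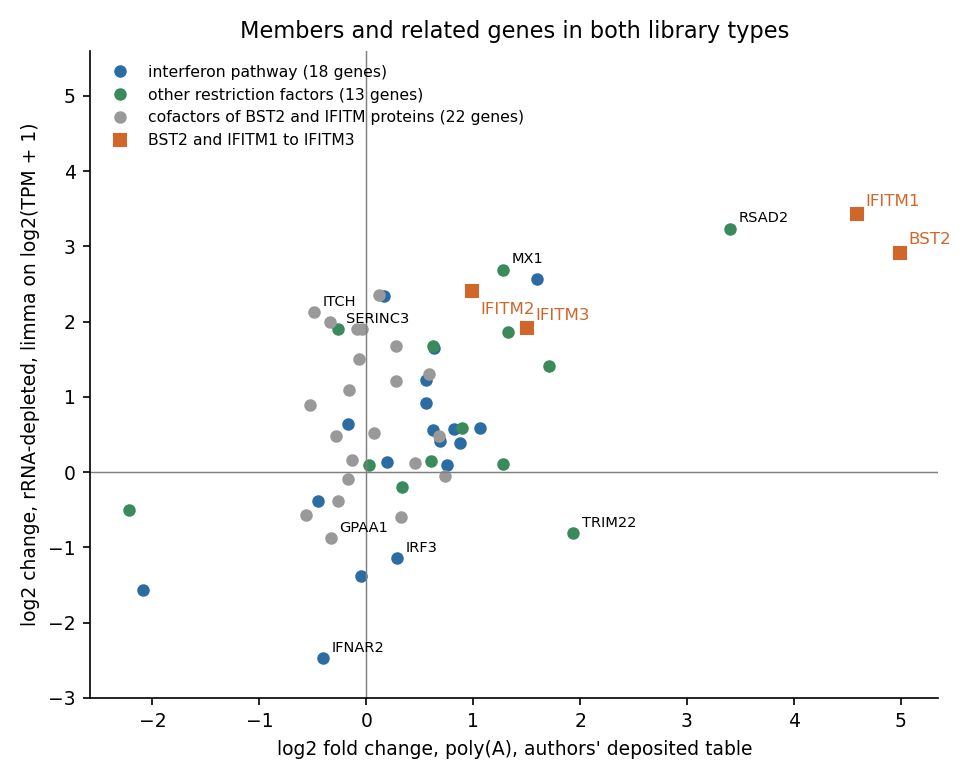
Log2 change in the poly(A) libraries (horizontal axis, authors' deposited table) against that in the rRNA-depleted libraries (vertical axis, limma) for BST2 and IFITM1 to IFITM3 (squares) and listed genes tested in both (circles). BST2 and IFITM1 lie farthest right, RSAD2 is high on both axes, and SERINC3, ITCH and TRIM22 have opposite signs on the axes.

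The genes with the most similar pair of log2 differences, by Euclidean distance over the 2 library types among 12498 genes, were taken for each member, 3 each. BST2 and IFITM1 were each other's nearest gene, at 0.65. The distance uses the log2 differences on which the members were selected, so it is only a description. It is smaller than the SE of IFITM1 in the rRNA-depleted libraries (0.97). With a pseudocount of 0.1 TPM the values there were 4.63 for IFITM1 and 2.95 for BST2. TMEM200A (0.66) and LYPD1 (0.96) came next for BST2, and LYPD1 (0.82) and CADM3 (0.92) for IFITM1. LYPD1 rose from 2, 2 and 5 reads in wild type to 98, 136 and 47 (limma adjusted p 0.00207), whereas TMEM200A had 0 reads in wild type and 13, 6 and 3 in the others. For IFITM2 the nearest were RBBP4P1 (0.036), PBX3 (0.12) and PDE4A (0.14), and for IFITM3 the gene ENSG00000231025 (0.045), TLR4 (0.077) and SSTR1 (0.082). Of these 6, PBX3 had the highest level, 95.4 TPM in the libraries labelled knockout, and the others were at 10.3 TPM or less. RBBP4P1 had 0 reads in wild type and 1, 2 and 1 in the others, and was not called in the authors' deposited table (adjusted p 0.571). ENSG00000231025 and SSTR1 were called in neither library type.

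The direction of all 4 genes was the same under each of 17 other ways of processing the rRNA-depleted libraries. The log2 difference ranged from 2.51 to 3.50 for BST2, from 1.86 to 2.93 for IFITM2 and from 1.58 to 2.48 for IFITM3, and each stayed under an adjusted p of 0.05 by limma. IFITM1 ranged from 2.19 to 4.63 and lost the call under 8 of the 17.

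**Figure D5:**
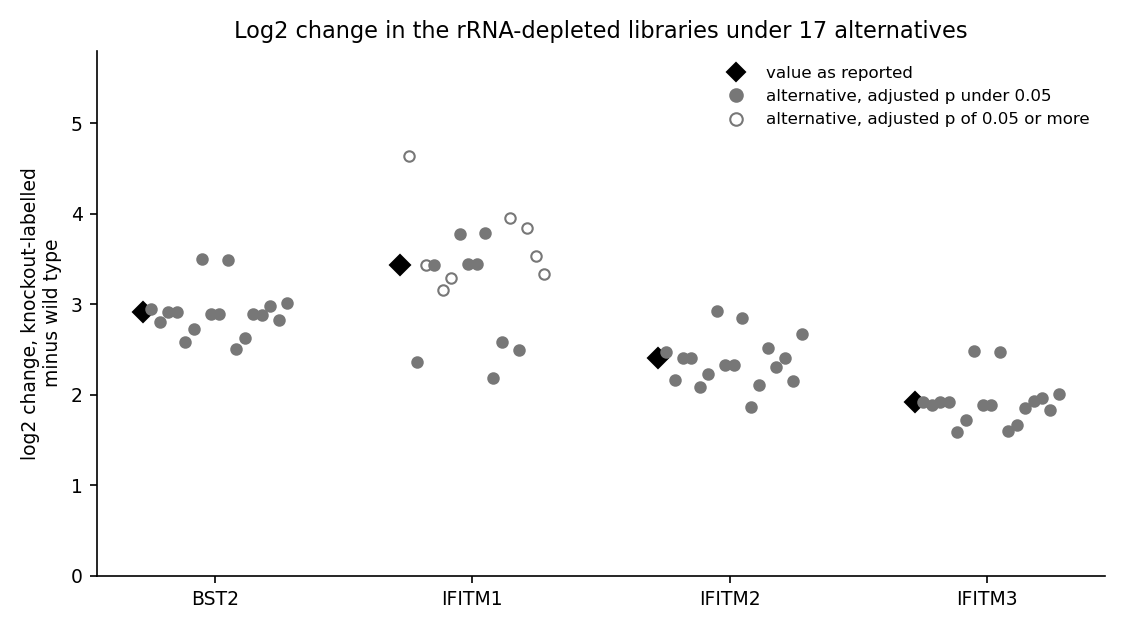
Log2 difference of each gene in the rRNA-depleted libraries as reported (diamonds) and under 17 alternatives (circles, open where limma's adjusted p was 0.05 or more). All points lie above 0, and open circles occur for IFITM1, which lost the call under 8 alternatives.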

How the data were processed

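The poly(A) libraries were used through the authors' deposited table. Its columns are, per the file headers, the mean normalized count of each gene (a pooled signal), the log2 fold change and its error, a Wald score, and raw and adjusted p-values. It holds no value of a single library, so nothing in it was retested. TPM values were deposited by the authors for the rRNA-depleted libraries. The submitters' processing notes name Trimmomatic, STAR, DESeq2 and hg38; the counting tool, its annotation and its use of strand are not given in the sources used here.

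Reads were recovered from TPM and GENCODE 29 exon lengths (56927 of 60669 genes matched). Of the values above 0, 90.9% were whole reads to within 0.02, as were all values of the 4 genes. Knockout-labelled libraries 1 and 2 were averaged after a chi-square test of their reads. Genes reaching 1 TPM in 3 or more libraries were tested with limma 3.58.1 (R 4.3.3, eBayes with trend) on log2(TPM + 1), genotype as the term, with Benjamini-Hochberg adjustment at 0.05. Fold changes on this scale understate those of genes with low TPM. Ratios of pooled reads have exact conditional binomial intervals, and levels exact Poisson intervals, at 95%. A count of 0 was read as allowing 3 reads. The step was also run on simulated data with few changed genes and no GC trend. That setting differs from these data, so it gives no error rate for them.

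The members and lists were chosen with earlier results of these data known. Named genes are the 4 members, METTL3, other IFITM rows, tested genes within 100 kb, the 3 largest called changes in each direction per list and library type, and the 3 genes most like each member. PLSCR1, and values set beside those of a gene named by this rule in the other library type, were added after the values were seen. Some genes that the rule names are not reported here. Other tools were Python 3.11.15, numpy 2.4.6, pandas 2.3.3, scipy 1.17.1 and matplotlib 3.10.9. Alternatives covered the pseudocount, filter, scaling, GC trend, separate libraries, replicate block, voom, and each sample left out; depth-scaled reads in place of TPM were added after the data were seen.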

Additional observations from a re-analysis of the deposited data

How the results depend on the processing

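BST2, IFITM2 and IFITM3 kept their direction and their call (limma) under all 17 alternatives. With each sample left out in turn the log2 difference was 2.82 to 3.01 for BST2, 2.15 to 2.67 for IFITM2, 1.83 to 2.005 for IFITM3 and 2.49 to 3.95 for IFITM1. IFITM1 kept its direction but lost its call with a pseudocount of 0.1 TPM (4.63), no filter (3.43, limma adjusted p 0.0663), median ratio scaling (3.16, limma adjusted p 0.0619) and 75th percentile scaling (3.29, limma adjusted p 0.0528). Its limma adjusted p over the alternatives was 0.00191 to 0.267.

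Over all genes, 5220 were called, and 1663 to 5003 with a sample left out (1663 without knockout-labelled library 3, 1739 without libraries 1 and 2 of that label). Of the genes called, 64.8% were higher, against 49.7% with median ratio scaling and 52.4% with voom. The authors' deposited table calls 2782 genes, 1811 at an adjusted p under 0.01 and 647 with a log2 fold change of at least 1 in size. The interferon pathway count of 7 became 11 with the GC trend removed, 12 with 6 separate libraries, and 2 to 6 with a sample left out. The cofactor count of 7 became 12 with 6 separate libraries, 15 with voom and 1 to 6 with a sample left out. The count of 4 restriction factors became 7 with voom and 1 to 4 with a sample left out. The count over all genes was 7376 of 14673 with voom, 6880 of 14789 with 6 separate libraries and 4928 of 14789 with the GC trend removed. Leaving out a knockout sample leaves 1 in that group, assumed to vary like the wild type. The causes were not tested.

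Correlations of deviations were -0.02 to 0.02 between same-numbered libraries and -0.04 to 0.03 between the others. Counting noise at this depth also draws such correlations toward 0, so they cannot tell whether the samples were paired. With the replicate number as a block, BST2 was at 2.89, IFITM1 at 3.44 (limma adjusted p 0.0126), IFITM2 at 2.33 and IFITM3 at 1.89, 6037 genes were called (6880 without the block), and the interferon pathway count was 11, or 12 with the GC trend also removed. Depth limits IFITM1 and IFITM2 most, with at most 1 and 4 reads per wild-type library.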

Other observations

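A list of 24 genes whose products modify or accompany BST2 and IFITM proteins was also examined: palmitoyltransferases, ubiquitin ligases, enzymes of the glycosylphosphatidylinositol (GPI) anchor that BST2 carries, and signalling partners. Of 22 tested in the rRNA-depleted libraries, 5 were higher and 2 lower (limma), beside 22.9% and 12.4% over all genes. Their median log2 difference was 0.71, beside 0.41 for all genes. Without knockout-labelled library 3, or without libraries 1 and 2, 1 was called. PIGK, the catalytic subunit of the GPI transamidase, was higher at 2.35 (SE 0.51, limma adjusted p 0.0213), ITCH, a ubiquitin ligase, at 2.13 (SE 0.27, limma adjusted p 0.00471), and VAPA, a partner of IFITM3 in the endoplasmic reticulum, at 1.90 (SE 0.38, limma adjusted p 0.0170). GPAA1, another transamidase subunit, fell by 0.88 and TRAF2 by 0.57 on the log2 scale (limma adjusted p 0.00410 and 0.0371), and both turned to the other sign with the GC trend removed (0.10 and 0.20). With that trend removed PIGK and VAPA had limma adjusted p of 0.0633 and 0.0546.

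The authors' deposited table calls 3 of 22 higher (KDM1A at 0.73, TRAF6 at 0.68 and PGAP1 at 0.59) and 4 lower, with a median of -0.07. The shares over all genes there were 9.55% higher and 10.3% lower. The largest falls in the authors' deposited table were TRAF2 at -0.57, PIGT at -0.52 and ITCH at -0.49. ITCH and PIGT (0.89, limma adjusted p 0.0421) were higher in the rRNA-depleted libraries, the opposite sign. PIGT lost that call with median ratio scaling (limma adjusted p 0.134).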
